A study of Mus musculus with 965 samples.

Results

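Immediate early genes are switched on within minutes of a signal, from transcription factors that are already bound or only need to be phosphorylated, and their messages are short-lived. The group described here was a list of 8 such genes, Fos, Fosb, Jun, Junb, Egr1, Atf3, Ier2 and Dusp1, taken by name from a count table of 36849 genes, and all 8 were found in it. Fos, Fosb, Jun, Junb and Atf3 encode leucine zipper proteins of the AP-1 and ATF families, which bind DNA as pairs. Egr1 encodes a zinc finger transcription factor, Ier2 a small nuclear protein, and Dusp1 a phosphatase that removes phosphate from MAP kinases and so limits the signal. Growth factors that act through ERK induce them, and so does the enzymatic dissociation of tissue, which is why they are often read as a mark of handling in single-cell data. Which of these sources acted here was not tested.

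The cells came from mouse embryoid bodies (EBs), aggregates that embryonic stem cells form once leukemia inhibitory factor is withdrawn. All lines derive from E14 cells. The homozygous Dnmt3a knockout (3AKO) was given by clones 3A2 and 3A38, the homozygous Dnmt3b knockout (3BKO) by clones 3B126 and 3B77, and wild type (WT) by 1 culture, with 363, 372 and 230 cells. They were taken at days 3, 6 and 8, with no day 8 cells of 3A2 used here. EBs of a clone and day were pooled, trypsinised and sorted as single live cells into plates, and 965 cells on 15 plates were read by a full-length method without molecular identifiers, so that PCR copies count as reads and every interval below covers counting error only. Cells held 50096 to 3442378 reads, and plates 21 to 80 cells. Clones are the replicates, in 14 sums of cells by clone and day. By the labels, 3AKO made up batch 1, 3B126 and WT were together in batch 2, and 3B77 stood alone in batch 3. Batch and genotype thus cannot be told apart, other than for 3B126 over WT.

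Some day 8 libraries went against their labels. At least 3 reads of 4 Y-linked genes were found in 11 of 40 cells where the label was 3B77 day 8, although 3B77 had 0 of 79 such cells at day 3 and 0 of 71 at day 6. In WT they were found in 23 of 74 and 36 of 67 cells at days 3 and 6, and at day 8 in 3 of 21 cells of plate C343 and 0 of 68 cells of plate C344. The median number of detected genes per cell was between 3566 and 3794 on C343, on the 3B77 day 8 plate, on 3A38 day 8 and on 3B126 day 3, against 5096 to 7203 on the others. The co-detection of pairs is given with and without the day 8 libraries of 3B77 and WT. Fits for fold changes left out 3B77 day 8, C343 or C344 alone, or 3B77 day 8 and C344 together. No fit left out 3B77 day 8 and both WT day 8 plates. Most fold changes are printed only from the fit with all libraries. The counts of members per cell, the correlations and the pooled shares of marker classes are given only with these day 8 libraries. The targeted gene followed the labels at day 3. Dnmt3a was at 22.4 and 12.9 CPM in 3A2 and 3A38, against 166 CPM in WT, and Dnmt3b was at 31.1 CPM in 3B126 and 30.6 CPM in 3B77, or 9.3% and 9.17% of its WT level. At day 6 Dnmt3b was at 67.8% of its WT level in 3B126 and 13.6% in 3B77, but also at 11.8% in 3A38, so that it did not separate 3BKO from the other clones there. At day 8 Dnmt3b was at 0.801 to 4.65 CPM in every sum and could not check them.

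The promoters of 4 members are shown because they carry versions of 1 short motif. Taken from RefSeq (GRCm38.p6), each stretch is 100 bases upstream of the start on the gene's own strand, moved upstream where an annotated exon of the gene reached into it. Capitals mark TGACG, or CGTCA on the other strand, the core that CREB and ATF proteins bind, and the longer form TGANNTCA, which can overlap it.
Fos, chr12:85473790-85473889, plus strand: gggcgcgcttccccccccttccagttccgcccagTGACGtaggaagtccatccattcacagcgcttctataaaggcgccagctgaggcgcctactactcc
Fosb, chr7:19310052-19310151, minus strand: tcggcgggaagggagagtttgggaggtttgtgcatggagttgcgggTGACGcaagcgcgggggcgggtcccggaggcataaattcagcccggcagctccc
Jun, chr4:95052223-95052322, minus strand: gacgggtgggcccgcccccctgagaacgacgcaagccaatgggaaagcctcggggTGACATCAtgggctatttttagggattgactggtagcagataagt
Dusp1, chr17:26508520-26508619, minus strand: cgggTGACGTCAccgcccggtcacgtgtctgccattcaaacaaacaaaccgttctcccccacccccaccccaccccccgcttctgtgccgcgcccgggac
In Fos the marked match lay 66 bases before the start, in Fosb 60, in Jun 45 and in Dusp1 143. TGACG on either strand was found in the 250 bases before the start of 17.8% of 32851 mouse promoters, and TGANNTCA in 11.9%. A match is a description of the sequence and not of binding. Atf3 and Junb also held TGACG in that window, 7 and 106 bases before their starts. The promoters of Egr1 and Ier2 were not searched. Jun, Junb and Ier2 are genes of a single exon in their main transcript. In the GENCODE M21 annotation the exons of Jun overlap those of Junos on the other strand, those of Junb overlap Prdx2 and those of Dusp1 overlap Ergic1. No source used here states whether counting used strand. The reads of these 3 members therefore cannot be told from their partners'.

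Of the 8 genes only Ier2 was found in most cells. It had a read in 789 of 965 cells (81.8%, 95% exact interval 79.2 to 84.2%), against 289 cells for Dusp1, 190 for Egr1, 185 for Jun, 175 for Junb, 86 for Atf3, 67 for Fos and 14 for Fosb. Levels per length of annotated exon followed a different order, with 36.3 CPM per kilobase for Ier2, then 4.34 for Atf3, 3.29 for Dusp1, 2.7 for Fos, 2.3 for Egr1, 2.28 for Jun, 1.01 for Junb and 0.0545 for Fosb, over all reads of the table. Atf3 and Fos thus ranked higher by level than by the number of cells. Their reads sat in few cells.

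A single cell of WT plate C343 held 1045 of the 2372 Fos reads (44.1%), and the 10 highest cells held 83.1%. For Atf3 the 10 highest cells held 66.7% of 3495 reads, against 16.7% of 20651 reads for Ier2. Among cells with a read, the median level was 53 CPM for Ier2, 40 for Atf3, 26.8 for Egr1, 26.6 for Fos, 20.4 for Jun, 19.9 for Fosb, 19.4 for Dusp1 and 9.13 for Junb. The highest cells reached 1889 CPM for Jun, 1876 for Fos, 1393 for Dusp1 and 926 for Atf3, and 84 for Junb. Single reads were common, in 35.4% of the Junb-positive cells and 16.3% of the Atf3-positive cells.

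To compare shares of cells between plates of unequal depth, each cell was thinned at random to 50000 reads. Fewer cells then had a read: 643 for Ier2, 183 for Dusp1, 130 for Egr1, 123 for Jun, 80 for Junb, 62 for Atf3, 48 for Fos and 9 for Fosb. All shares that follow use thinned cells unless stated otherwise.

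**Figure D1:**
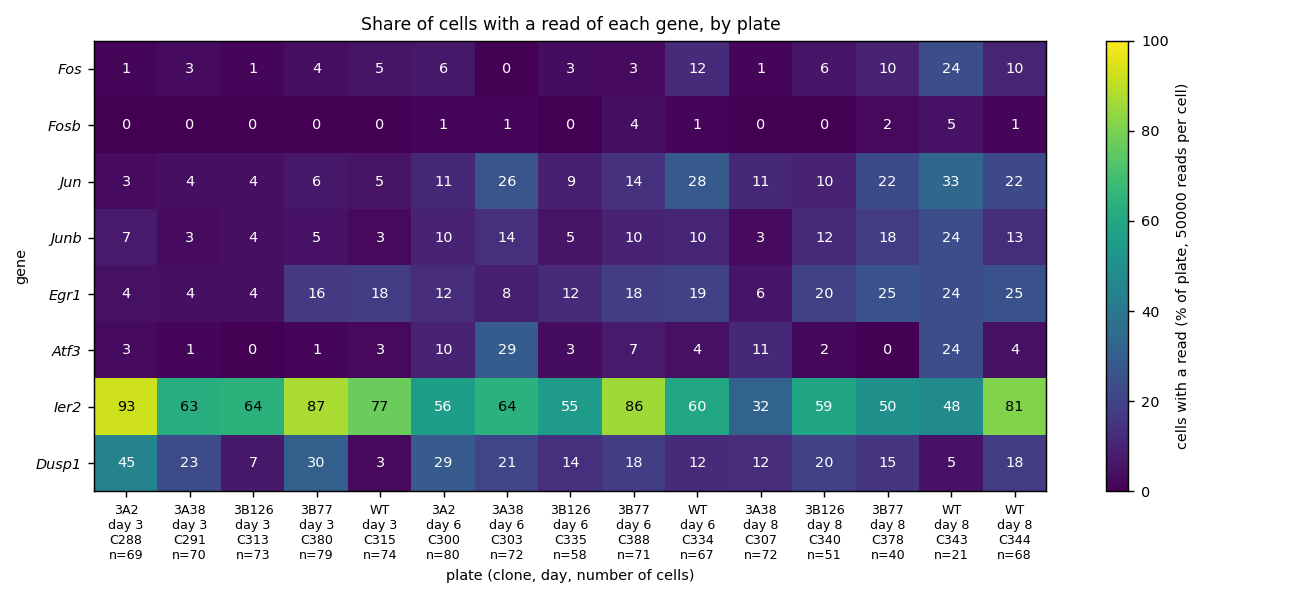
Share of cells with a read of each gene (rows) on each of the 15 plates (columns, ordered by day and then by clone), in percent of the plate's cells after thinning to 50000 reads. Ier2 stands between 31.9% and 92.8% on every plate, Dusp1 is highest on the 3A2 day 3 plate (44.9%), and Atf3 stands out on 3A38 day 6 (29.2%) and WT plate C343 (23.8%).

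At day 3 the transcription factors of the list were rare. Jun was seen in 2.9% to 6.33% of the cells of a plate, Fos in 1.37% to 5.41% and Atf3 in 0 to 2.9%. In 3B126 no thinned cell of 73 held Atf3, which allows up to 4.11% of cells with a read at that depth, and 1 of the 73 held it as deposited. Egr1 divided the day 3 plates, with 4.35%, 4.29% and 4.11% in 3A2, 3A38 and 3B126, and 16.5% in 3B77, against 17.6% in WT. At days 6 and 8 Jun was seen in 8.62% to 33.3% of the cells of a plate, the upper end being 7 of 21 cells on C343.

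Dusp1 divided the clones by day. In 3A2 it was seen in 44.9% and 28.8% of cells at days 3 and 6, in 3A38 in 22.9%, 20.8% and 12.5% at days 3, 6 and 8, and in 3B77 in 30.4%, 18.3% and 15%. In 3B126 it was seen in 6.85%, 13.8% and 19.6%, and in WT in 2.7% and 11.9% at days 3 and 6 and in 4.76% of C343 and 17.6% of C344 cells at day 8. The share was thus highest at day 3 in 3A2, 3A38 and 3B77 and lowest at day 3 in 3B126 and WT, the lines of batch 2, so that batch and clone cannot be told apart here. As deposited, WT had 20.3% and 20.9% at days 3 and 6, and 4.76% of C343 and 25% of C344 cells at day 8. Its day 3 share was then not the lowest. Within batch 2 at day 3, 3B126 had 6.85% of thinned cells (95% exact interval 2.26 to 15.3%), against 2.7% in WT (0.329 to 9.42%). In cells as deposited the order turned, with 9.59% (3.94 to 18.8%) in 3B126, against 20.3% (11.8 to 31.2%) in WT, and the intervals overlapped at both depths. Ier2, counted as deposited, had a read in 75.3% or more of the cells of each day 3 plate and in all 79 cells of 3B77, against 41.7% to 91.5% on the later plates. In 3B126 its share as deposited was lowest at day 3, with 75.3%, 86.2% and 84.3% at days 3, 6 and 8. In thinned cells the order turned, with 64.4%, 55.2% and 58.8%, so that day 3 was highest. WT day 3 was close to C344 at day 8, with 89.2% and 89.7% as deposited and 77% and 80.9% when thinned.

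Summed by clone and day, Jun and Atf3 were higher in every day 6 sum than in every day 3 sum. Jun had 0.507 and 6.1 CPM, scaled here and below by TMM factors, in 3A2 at days 3 and 6. In 3A38 it had 0.823, 15.3 and 9.69 CPM at days 3, 6 and 8, in 3B126 3.26, 5.43 and 2.43 CPM, in 3B77 0.53, 4.73 and 8.01 CPM, and in WT 2.74, 30.1 and 15.7 CPM. The day 8 sum of 3B126 lay within the day 3 range, so that the days overlapped there. In these sums, more cells with the message and more message per cell cannot be told apart.

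Atf3, which stress and growth signals induce, had 0.812 and 3.65 CPM in 3A2 at days 3 and 6. The 3A38 sums had 0.137, 40.5 and 18.3 CPM at days 3, 6 and 8, those of 3B126 0.169, 1.13 and 0.113 CPM, those of 3B77 0.166, 2.35 and 0.689 CPM and those of WT 0.399, 4.52 and 35.9 CPM. High values were thus confined among these 14 sums to 3A38 at days 6 and 8 and WT at day 8. WT day 8 rested on plate C343, with 142 CPM by plate total, against 0.763 CPM on C344. In all, 2 of 8 members had every day 6 sum above every day 3 sum, as had 1.48% of all 24083 genes tested, and 0 of 8 had every day 8 sum above every day 3 sum, as had 3.08%.

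Fos was at 0.474 to 2.39 CPM in all day 3 sums. At day 6 it was at 3.4 CPM in 3A2, 0.192 in 3A38, 2.83 in 3B126 and 1.31 in 3B77, against 11.9 CPM in WT. The day 8 sums held 0.221 CPM in 3A38, 16 in 3B126 and 11 in 3B77, against 61.7 CPM in WT. So 3A38 held the lowest sum at both later days and WT the highest, but at day 8 the WT rank rested on C343. By plate total, C344 had 9.16 CPM, against 19.8 CPM on the 3B126 plate and 13 CPM on the 3B77 plate, so that WT was below both there. On C343 the plate total was 227 CPM with its highest cell and 40.9 CPM without it, on C344 9.16 and 4.09 CPM. In 3B126 at day 8 the value likewise came from 1 cell, with 19.8 CPM with it and 1.07 CPM without it, and at day 6 1 cell held 68 of its 75 reads, with 0.209 CPM without it. The titles of 4 of the 21 cells of C343 and of 4 of the 51 cells of 3B126 day 8 end in NPM, which the labels do not explain. On C343 those 4 cells held 1079 of 1247 Fos reads, the highest cell included, and 549 of 780 Atf3 reads, and without them the plate had 40.2 CPM of Fos and 55.3 CPM of Atf3. In 3B126 day 8 they held no Fos read. Fosb, the rarest member, had a read on 8 of the 15 plates and was highest on C343, where all 70 reads lay in the same cell as the Fos peak.

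Egr1 was at 2.03 to 9.48 CPM at day 3, 4.55 to 21.4 CPM at day 6 and 2.71 to 36.2 CPM at day 8, with 3A38 the lowest clone at each day. Junb stayed between 0.302 and 5.1 CPM over the 14 sums. Ier2 ran the other way, with 83.9, 32.1, 218 and 50.3 CPM in 3A2, 3A38, 3B126 and 3B77 at day 3, against 146 CPM in WT, then 28.6 to 50.6 CPM at day 6 and 24.6 to 50.1 CPM at day 8. Its 3 highest day 3 sums lay above every later sum, while 3A38 and 3B77 did not.

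**Figure D2:**
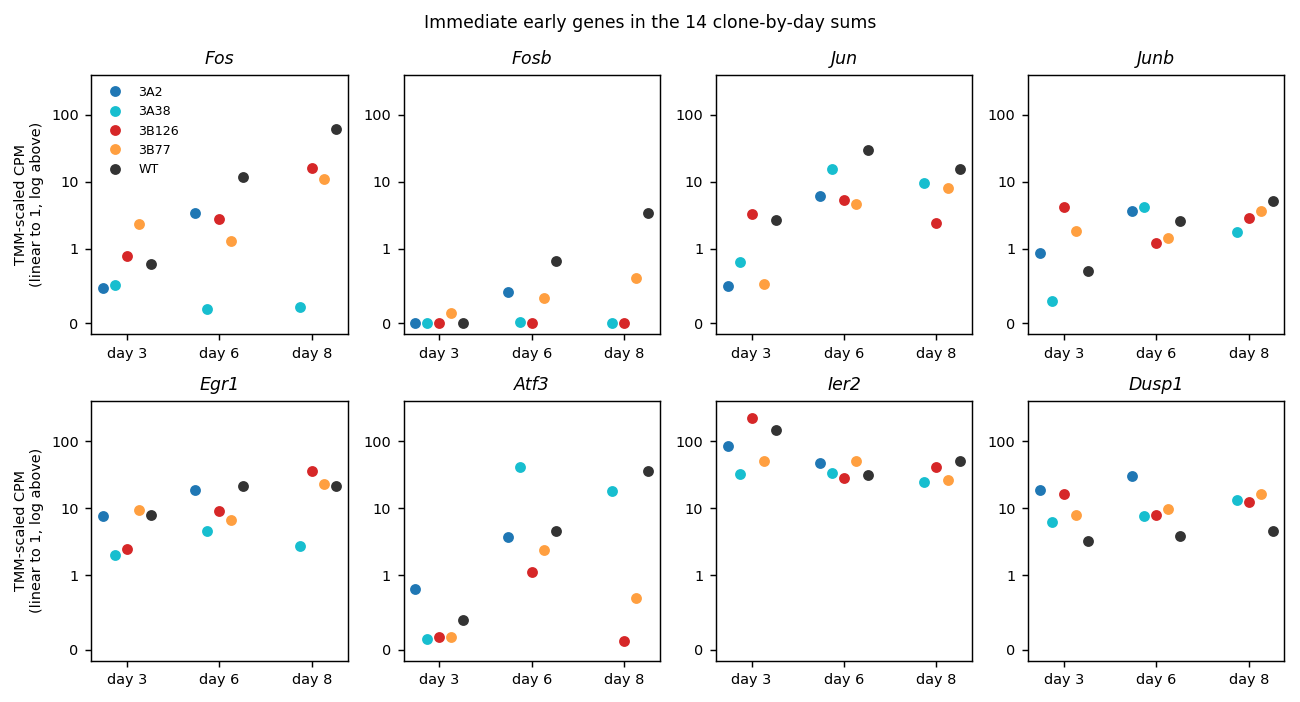
Level of each gene in the 14 clone-by-day sums, in TMM-scaled CPM on an axis that is linear to 1 and logarithmic above, by day and coloured by clone. Jun and Atf3 are higher at day 6 than at day 3 in all 5 clones, Ier2 is highest at day 3 in 3B126 (218 CPM) and WT (146 CPM), and the lowest Dusp1 value of each day is that of WT (3.19, 3.79 and 4.55 CPM).

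Dusp1 was lower in WT than in any knockout sum. The 3A2 sums had 18.6 and 29.7 CPM at days 3 and 6, those of 3A38 6.2, 7.62 and 13.2 CPM at days 3, 6 and 8, those of 3B126 16.1, 7.84 and 12.3 CPM and those of 3B77 7.92, 9.76 and 16.5 CPM, against 3.19, 3.79 and 4.55 CPM in WT. All 11 knockout sums thus lay above all 3 WT sums, as they did for 0.083% of all genes tested. The WT day 8 sum pooled C343, at 0.364 CPM by plate total, with C344, at 8.31 CPM. By plate total C344 alone was above 3A38 day 3 (6.25 CPM) and 3B126 day 6 (6.16 CPM), so that the separation did not hold with it. WT is 1 culture, and its sums share it. Day 3 of 3B126 rested on 1 cell, which held 249 of the plate's 287 Dusp1 reads. Without the highest cell of each, that plate had 1.26 CPM, against 1.74 CPM on the WT day 3 plate, so that within batch 2 the order turned at day 3. At day 6 the same comparison gave 4.74 CPM in 3B126 and 2.85 CPM in WT, and at day 8 10.7 CPM in 3B126, against 0 on C343 and 6.61 CPM on C344.

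The differences were tested with edgeR's quasi-likelihood fit over the 14 sums, with calls at a p under 0.05 after Benjamini-Hochberg adjustment. Fosb was left out, since whole groups held no read of it. None of the 7 other members was called in any of 4 contrasts. Called genes made up 0.0374% of all genes for day 6 over day 3, 0.822% for day 8 over day 3, and 0% for both 3AKO over WT and 3BKO over WT. At an unadjusted p under 0.05 the members passing were 4, 4, 2 and 1 of 7, beside 11.6%, 16.3%, 7.08% and 3.14% of all genes. The day contrasts average over the 3 genotypes, and the WT sums are assumed to vary like the knockout clones.

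Atf3 had the largest day differences, with log2 fold changes of 4.12 ± 1.05 (SE) for day 6 over day 3 (edgeR adjusted p = 0.161) and 4.31 ± 1.09 for day 8 over day 3 (edgeR adjusted p = 0.0716). Jun had 2.96 ± 0.86 (edgeR adjusted p = 0.22) and 2.61 ± 0.87 (edgeR adjusted p = 0.149). Fos had 2.02 ± 0.86 and 2.71 ± 0.93, Ier2 -1.50 ± 0.55 and -1.59 ± 0.60, and Dusp1 0.13 ± 0.67 and 0.29 ± 0.71. For day 6 over day 3 the values of 6 of 7 members were positive, with a median of 1.14 beside 0.11 over all genes, and for day 8 over day 3 6 of 7, with a median of 1.50 beside -0.01. Those 2 contrasts share the day 3 sums.

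Against WT, the widest 3AKO value was that of Fos, at -3.83 ± 1.00 on the log2 scale (edgeR adjusted p = 0.428), and Dusp1 was at 1.93 ± 0.81. For 3BKO over WT the widest values were -3.04 ± 0.92 for Atf3, -1.57 ± 0.79 for Jun and 1.6 ± 0.77 for Dusp1, each with an edgeR adjusted p of 1. Leaving out the cell with the most Fos reads, a choice made after seeing the data, gave -3.14 ± 1.08 for Fos in 3AKO over WT and 2.02 ± 1.01 for day 8 over day 3. The Fos value in 3AKO over WT was -1.28 ± 1.28 without 3A38 and -2.76 ± 1.09 without plate C343. Without C343, Atf3 was at 2.52 ± 1.15 in 3AKO over WT, in place of 0.52 ± 0.98, and at -1.04 ± 0.99 in 3BKO over WT.

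**Figure D3:**
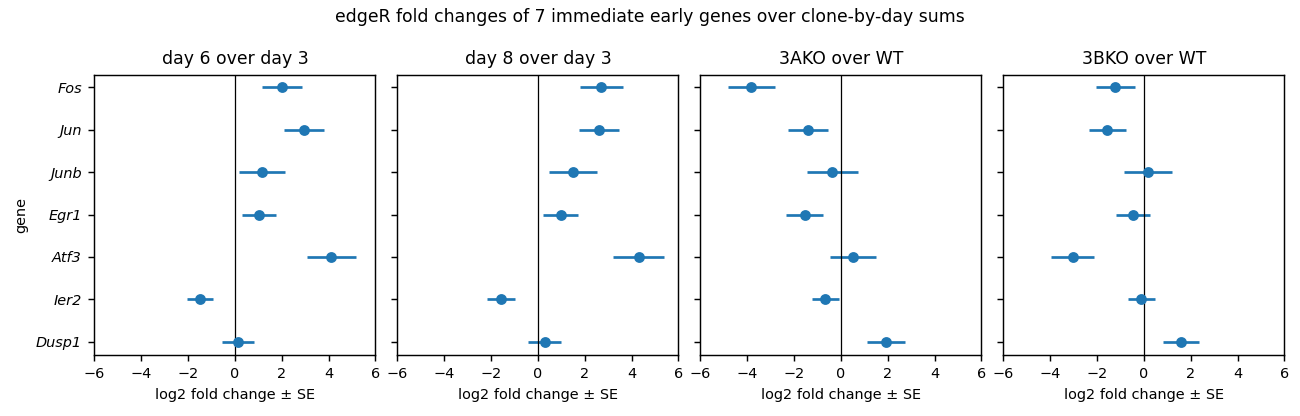
Log2 fold change with its standard error from edgeR for 7 genes (rows) in 4 contrasts (panels), day 6 over day 3, day 8 over day 3, 3AKO over WT and 3BKO over WT, over the clone-by-day sums. Atf3 (4.12 and 4.31) lies farthest from 0 in the day contrasts and Fos (-3.83) in 3AKO over WT, and no gene passed the adjusted threshold.

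Other settings called some members. With DESeq2, Jun and Atf3 rose for day 6 over day 3 (adjusted p = 0.00217 and 0.000246, with 9.2% of all genes called), Fos, Jun and Atf3 rose for day 8 over day 3 (adjusted p = 0.00942, 0.00596 and 0.000102, with 17.6%), and Fos fell in 3AKO relative to WT (adjusted p = 0.00216, with 3.81%). With edgeR and no filter on low counts, Atf3 rose at day 6 and at day 8 relative to day 3 (edgeR adjusted p = 0.00774 and 0.00377, with 2.27% and 4.36%). The calls also turned on single libraries. Without 3A2, Atf3 was called at both days (edgeR adjusted p = 0.00755 and 0.00527, with 2.37% and 4.49%), and without 3A38 Fos was called at day 8 (edgeR adjusted p = 0.0489, with 1.47%). Without plate C344, Fos and Atf3 were called at day 8 (edgeR adjusted p = 0.0463 and 0.0235, with 3.29%), and without C344 and 3B77 day 8 together they were called as well (edgeR adjusted p = 0.0421 and 0.0334, with 3.36%). Without C343, the other WT day 8 plate, no member was called, and for day 8 over day 3 Fos was at 1.65 ± 1.02 (edgeR adjusted p = 0.5) and Atf3 at 2.32 ± 1.05 (edgeR adjusted p = 0.312). Without WT, Fos was at 0.95 ± 1.15 for day 8 over day 3. Dusp1 for day 8 over day 3 turned to -0.94 without C344.

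Members were next compared within cells. Under independence within each plate, the 28 pairs of members had a median observed over expected number of cells with both of 1.31, and 25 pairs lay above 1. Over the 21 pairs with at least 3 cells expected the median was 1.17, and 19 lay above 1. Fos and Egr1 were seen together in 26 cells, with 8.74 expected (ratio 2.98), and above expectation on 12 of the 14 plates that held both genes. Thus 26 of the 48 Fos-positive cells also held Egr1. Junb and Egr1 were together in 31 cells, with 12.7 expected (2.43, above expectation on 11 of 15 plates), Jun and Atf3 in 20 cells, with 11.8 expected (1.7), and Fos and Fosb in 4 cells, with 0.707 expected.

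The pairs of Dusp1 lay on both sides of expectation. It was found with Jun in 16 cells, with 21.1 expected (0.76), with Junb in 15, with 15.4 expected, with Egr1 in 25, with 22.8 expected, and with Atf3 in 13, with 11.7 expected. With Fos it was in 10 cells, with 7.82 expected (1.28), with Fosb in 3, with 1.54 expected, and with Ier2 in 137, with 129 expected (1.06, above expectation on 14 of 15 plates). Ier2, being in most cells, could hardly exceed expectation, and its ratios ran between 1.06 and 1.26. In cells as deposited Fos and Egr1 had a ratio of 2.45. The ratio of Jun and Dusp1 turned with the threshold, at 0.845 in cells as deposited, 1.06 at a minimum of 10 CPM and 1.48 at a minimum of 3 reads. Without 3B77 day 8 and both WT day 8 plates the median over pairs was 1.51.

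**Figure D4:**
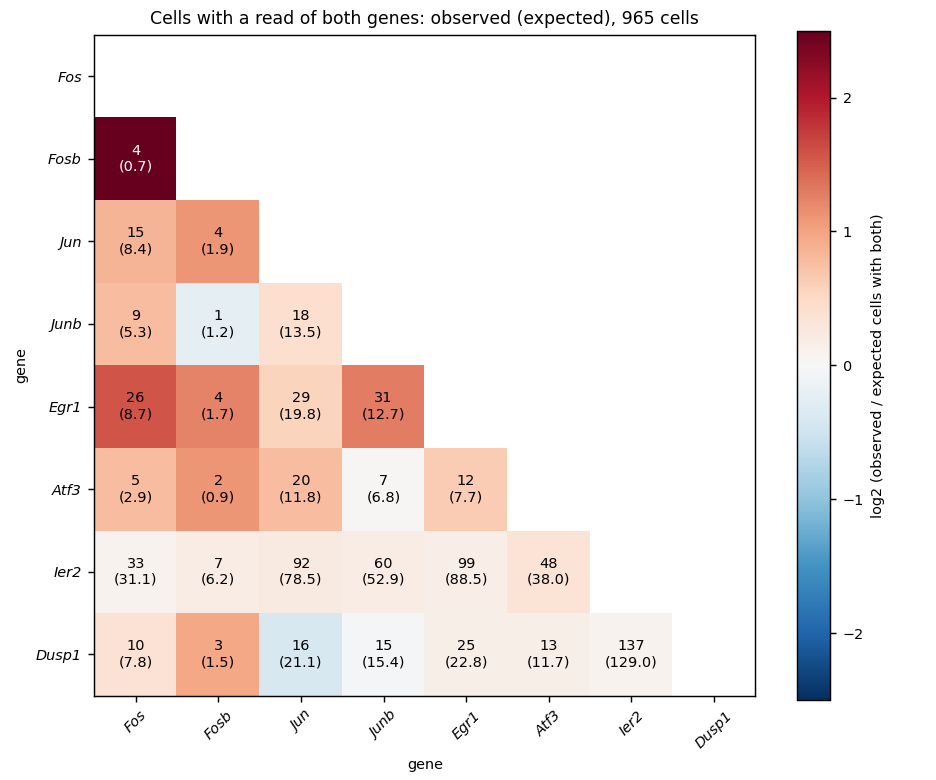
Cells with a read of both genes of each pair, observed and (in brackets) expected under independence within plates, over 965 cells thinned to 50000 reads, coloured by the log2 ratio. Fos with Egr1 (26 observed, 8.74 expected) and Junb with Egr1 (31 observed, 12.7 expected) are above expectation, while Jun with Dusp1 (16 observed, 21.1 expected) is below it, a direction that turns at higher thresholds.

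The excess of cells with many members sat in a small set, and cells with no member were also above expectation, at 198, with 165 expected. Of the 965 cells, 35 held at least 4 members, with 15.5 expected, and 14 held at least 5, with 1.59 expected, while 106 held at least 3, with 94.7 expected. Cells with 3 or more members had a median of 218313 reads, 6015 detected genes and 16% mitochondrial reads, against 259908 reads, 5815 genes and 17.6% in the other 859 cells. On the plates the share of cells with 3 or more members ran from 1.37% (3B126 day 3) to 33.3% (C343), with 20.8% on 3A38 day 6 and 23.5% on C344.

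Ranked among 9155 genes by their mean within-plate Spearman correlation, a description over 6 to 15 plates whose cells share libraries and batches, members were often each other's closest genes. Other genes with a read in under 10% of thinned cells were left out, while all members were kept. Fos, Fosb, Junb and Atf3 lay below that share, so they were ranked without other genes as sparse as they are. Egr1 ranked first for Fos (0.293), and Fos ranked first for Egr1. For Junb the first gene was Egr1 (0.18), and for Atf3 it was Jun (0.176). Dusp1 had no member nearer than rank 339. Over all 8 members together, the 10 non-member genes with the highest mean were Tob2, Actb, Aar2, Hist1h1c, Trim71, Hgs, Cep135, Crnkl1, Acaca and Golga1, at 0.0698 to 0.0776, values too low in sparse counts to be read as likeness.

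Cells were then classed by markers of the cell types an EB can hold, as cells with a read of at least 4 of 8 markers. Such a class is a range along a count and not a type, and classes can overlap. Jun was frequent among cells with endothelial markers (such as Kdr, Cdh5 and Pecam1). It was seen in 19 of 27 of them (70.4%, 95% exact interval 49.8 to 86.2%), against 57 of 351 other cells of the same 6 plates (19.2% when weighted to the plates of the class). By plate these were 2 of 2 cells in 3A2 day 6, 6 of 9 in 3A38 day 6, 4 of 7 in WT day 6, 0 of 1 in 3B126 day 8, 4 of 4 in 3B77 day 8 and 3 of 4 on C344. The share was higher inside the class than outside it on 5 of 6 plates, 3A38 and WT day 6 included, which are not among the doubtful libraries. As many as 23 cells lay at the edge of the class, with 3 or 4 markers. Ier2 was seen in 24 of the 27 cells, above the share outside the class on 6 of 6 plates. Junb was in 8 of 27 (29.6%), against 11.4% outside when weighted, and was more frequent inside on 5 of 6 plates. Atf3 was in 7 of 27 (25.9%), against 11.3% when weighted, and was more frequent inside on 3 of 6 plates. Fos did not stand out, with 2 of 27 cells (7.41%), against 25 of 351 other cells.

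Cells with macrophage markers were only 7, on 3 plates. Ier2 was seen in 6 of 7, against 48.1% of the other cells of those plates when weighted. Fos was seen in 4 of 7 (57.1%, 18.4 to 90.1%), against 5 of the other cells of those plates (7.6% when weighted), and Junb in 5 of 7 (71.4%, 29 to 96.3%), against 17 others (14.3% when weighted), while Jun and Dusp1 were in 0 of 7, which allows a share of up to 42.9%. As deposited, they were in 2 and 1 of 7. Of the 7 cells, 4 came from the library labelled 3B77 day 8 and 2 from C343. C1qb, a macrophage marker, was not analysed here. The cell with 1045 Fos reads was not one of them, with 0 macrophage markers and 6 of 8 mesenchyme markers. It also held 516 Atf3, 121 Egr1, 70 Fosb, 62 Ier2 and 59 Jun reads and no Junb or Dusp1 read.

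In cells with epiblast markers (such as Pou5f1 and Utf1) the pooled shares of Jun and Atf3 were below those of other cells. On the 11 plates with cells in and out of the class, Jun was seen in 22 of 342 cells with epiblast markers (6.43%), against 78 of 414 other cells (11.8% when weighted), and Atf3 in 9 of 342 (2.63%), against 45 of 414 (9.22% when weighted). By plate, however, Jun was more frequent inside the class on 7 of 11 plates and Atf3 on 4 of 11. On WT day 6 Jun was in 0 of 14 cells of the class, against 19 of 53 others, and on 3A2 day 6 in 1 of 58, against 8 of 22, whereas on 3B126 day 6 it was in 2 of 21, against 3 of 37. The class held 490 cells in all, and 150 cells lay at its edge. Between the days the makeup of the EBs moved with the sums, with epiblast markers in 327 of 365 cells at day 3, 123 of 348 at day 6 and 40 of 252 at day 8, and its part in the day differences of Jun and Atf3 was not tested.

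**Figure D5:**
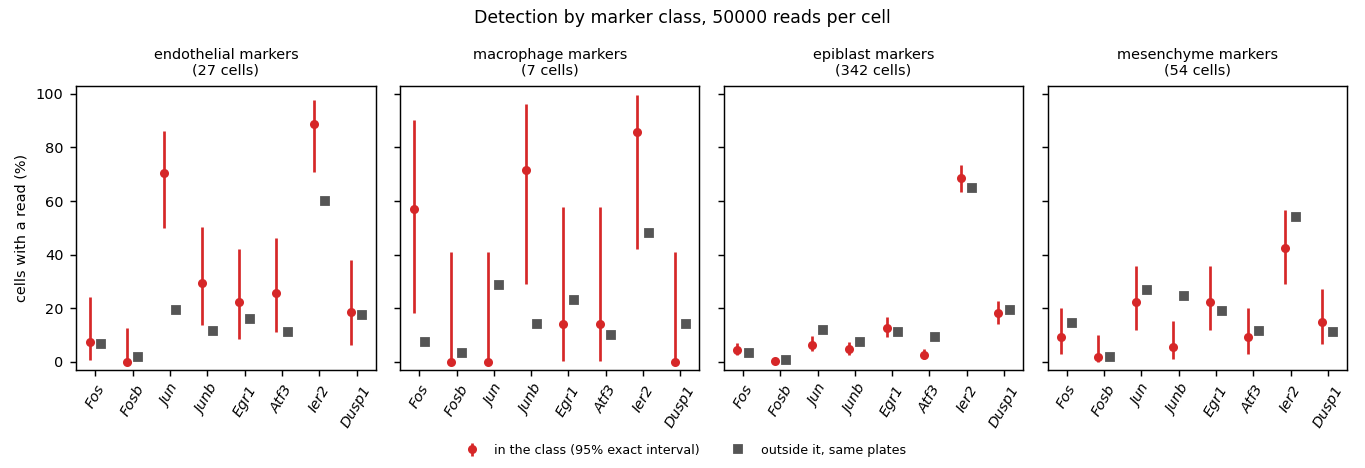
Share of cells with a read of each gene in cells with at least 4 markers of a class (circles, 95% exact interval) and in the other cells of the same plates, weighted to the plates of the class (squares), for 4 classes. Jun is in 70.4% of the endothelial class and 19.2% outside it, and Fos and Junb are in 57.1% and 71.4% of the 7 cells of the macrophage class.

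Genes around the 8 members in the same pathways gave 1 call. Of the Fgf ligands and receptors, 1 of 11 rose, Fgf10, an Fgf ligand of mesenchyme, which was at 0 to 0.744 CPM at day 3, 2.68 to 31.7 CPM at day 6 and 22.5 to 106 CPM at day 8 (edgeR adjusted p = 0.0424 for day 6 and 0.0086 for day 8). No gene passed in any contrast among 11 other AP-1 family genes, 33 other early response genes, 15 ERK feedback genes, 18 upstream regulators of ERK and SRF, 12 SRF cytoskeletal targets, 12 heat shock genes, 12 genes of the integrated stress response and 10 p53 targets. Batf2 was not analysed here.

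The directions of these lists differed between one another. For day 6 over day 3 the median log2 fold change was 0.52 for the other early response genes, with 21 of 33 positive, and 1.08 for the SRF cytoskeletal targets such as Actb, with 11 of 12 positive. It was 0.65 for the integrated stress response genes, with 9 of 12 positive. For the ERK feedback genes it was -0.75, with 4 of 15 positive. The heat shock genes were at -0.34, with 5 of 12 positive, and the p53 targets at -0.51, with 0 of 10 positive, beside 0.11 over all genes. Spry2, an inhibitor of receptor tyrosine kinase signalling, was at -2.01 ± 0.79, and Hsp90ab1, a chaperone, at -0.88 ± 0.50. Mcl1, an early response gene that protects from cell death, was at -0.28 ± 0.48. For 3AKO over WT the integrated stress response genes had a median of 1.78, with 10 of 12 positive, beside 0.26 over all genes, among them Psat1, an enzyme of serine synthesis, at 1.77 ± 0.60 and Atf4, the main transcription factor of that response, at 1.21 ± 0.57. All 3AKO cells were of another batch than WT. For 3BKO over WT the same list had a median of 0.62, with 10 of 12 positive, beside 0.25 over all genes. There Psat1 was at 1.10 ± 0.56 and Atf4 at 0.91 ± 0.54.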

How the data were processed

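The deposited values are unnormalised read counts of each gene in each cell. As the study's methods and the submitters' notes state, the authors aligned reads with STAR 2.7.1a to mm10/GRCm38, after Trim Galore 0.5.0 and FastQC 0.11.2, and counted them with featureCounts 1.6.1 on exons by gene name with a GENCODE annotation, without multi-mapped reads, which lowers counts of genes with close copies. They kept cells with at least 50000 reads, 2000 genes and at most 50% mitochondrial reads. Every column was mapped to a labelled cell.

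The 8 members, the other lists and the named genes were chosen with earlier results of these data known. All members are named. Of the other lists, called genes are named, otherwise the 2 with the highest mean CPM (for some lists only 1 or none is printed), and the 10 genes most like the members. Counts were summed by clone and day (9810248 to 44529830 reads), filtered with filterByExpr (24083 genes) and tested with edgeR 4.0.16 (R 4.3.3, TMM, glmQLFit, glmQLFTest), with 5 residual degrees of freedom. DESeq2 1.42.0 was an alternative. The p-values measure the spread between the 2 clones of a knockout at the days that have both. Sums of 1 clone at different days enter as independent, although they share the clone. The 3BKO clones also differ in batch, so their spread is not that of clones alone. For shares, each cell was thinned to 50000 reads in 1 random draw. Co-detection sums, over plates, the product of both shares times the cells. Correlations use thinned cells and genes with a read in 10% of them, with the 8 members kept whatever their share. Intervals are 95% exact binomial. Limits at a count of 0 use 3 cells of the plate. Scripts were tested on simulated data. The simulated counts for edgeR varied less than these data, so that test does not show which changes could be found here.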

Additional observations from a re-analysis of the deposited data

Results flagged for a closer look

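Among the clones of a day, 5 values lay far from the other clones, out of 24 checks of a member at a day. The cut-off would flag about 1 in 20 by chance for normally spread values. These levels often rest on 1 cell, so that rate need not hold here. Fos was at 2.39 CPM in 3B77 at day 3, with the next clone at 0.899 CPM. A single cell held 65 of its 72 reads, and the plate total, on plain CPM, was 2.75 with that cell and 0.269 without it. Fos was also at 11.9 CPM in WT at day 6, with the next at 3.4 CPM. Fosb was at 0.133 CPM in 3B77 at day 3, while the other 4 clones had no read, a case in which any read is flagged. All 4 reads lay in 1 cell. Atf3 was at 40.5 CPM in 3A38 at day 6, with the next clone at 4.52 CPM. Its highest cell there held 634 of 1692 reads, and the plate total, on plain CPM, was 58.1 with that cell and 37.4 without it. Dusp1 was at 29.7 CPM in 3A2 at day 6, with the next clone at 9.76 CPM.

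The Junb sums moved in opposite directions between days 3 and 6 in the 2 knockouts. The 3A2 and 3A38 clones had 0.947 and 0.302 CPM at day 3 and 3.69 and 4.24 CPM at day 6, whereas 3B126 and 3B77 had 4.21 and 1.86 CPM at day 3 and 1.24 and 1.44 CPM at day 6. On the log2(CPM + 0.5) scale the mean changes differed by 2.9. The difference was not tested, and in 3B126 at day 3 a single cell held 64 of 75 Junb reads. Without the highest cell of each plate, 3B126 had plain plate totals of 0.379 CPM at day 3 and 0.664 CPM at day 6, so that its direction turned. The shares of thinned cells with Junb were also higher at day 6 in both 3BKO clones, with 4.11% and 5.17% in 3B126 and 5.06% and 9.86% in 3B77 at days 3 and 6.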

How the results depend on the processing

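Counts of called genes depended on the setting. For day 6 over day 3, 9 genes in the reported fit became 1500 with DESeq2, 808 without a filter, 5 with RLE factors, 26 after thinning, 24 with the clone as replicate block, 42 without 3B77 day 8, 5 without plate C344 and 42 without both. Leaving out 1 clone gave 1 to 556. For day 8 over day 3, 198 became 2876, 1555 and 555 with DESeq2, without a filter and after thinning, 787 without C344, 796 without it and 3B77 day 8, and 108 to 1051 without 1 clone. For 3AKO over WT, 0 became 569 with DESeq2, 183 without a filter, 1 without 3B77 day 8, 3 without C344, 31 without both, and 0 to 67 without 1 clone. For 3BKO over WT, 0 became 133 with DESeq2, 50 without a filter, 1 without 3B77 day 8, 4 without it and C344, and 0 to 32 without 1 clone. The cause was not tested, save that fewer genes or samples enter some fits.

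With the clone as replicate block, possible only for the day contrasts since each clone has 1 genotype, day 8 over day 3 gave 191 genes, and no member was called. The clones are the same lines at each day.

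Of 399 member fold changes under these settings, 373 kept direction and side of the threshold, 15 became called, as reported above, and 11 turned sign. These were Dusp1 for day 8 over day 3 (-0.94 without C344, -0.98 without it and 3B77 day 8), Atf3 in 3AKO over WT (-0.13 and -0.09 in the same settings), and Junb in 3BKO over WT (-0.24 and -0.31 in the same settings, -0.11 after thinning). Leaving out 1 clone gave ranges across 0 for Dusp1 in day 6 over day 3 (-0.07 to 0.38), Junb in 3AKO over WT (-0.65 to 0.45) and Ier2 in 3BKO over WT (-0.59 to 0.06), the last also as 0.06 between 3B126 and WT within batch 2.

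The median co-detection ratio of 1.31 became 1.25 in cells as deposited, 1.86 at a minimum of 3 reads, 1.49 at 10 CPM and 1.51 without 3B77 day 8 and both WT day 8 plates. Of 112 ratios of single pairs, 12 moved. Of the shares, 5 of 32 moved by more than the spread between plates, and Junb was at 18.1% as deposited and 0.829% at 3 reads. None of the 28 correlations did.

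Depth limits the rare members most: with 14 Fosb-positive and 67 Fos-positive cells, pairs with under 3 expected cells are counts of a few cells.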

Other observations

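Other marker classes showed members that were less common inside than outside. Cells with mesenchyme markers held Junb in 3 of 54 (5.56%, 95% exact interval 1.16 to 15.4%), against 37 of 286 other cells of the same plates (12.9%, or 24.5% when weighted to the plates of the class), and 44 cells lay at the edge of that class. On C343, 5 of the 9 other cells held Junb. It was more frequent inside the class on 1 of 6 plates, and as deposited on 3 of 6. Most of the class came from 3A38 day 8 (14 cells), the library labelled 3B77 day 8 (18) and C343 (12), all plates with few detected genes. Cells with neuron markers held Egr1 in 9 of 113 (7.96%, 3.71 to 14.6%), against 93 of 717 (14.3% when weighted), and Fos in 1 of 113 (0.885%), against 34 of 717 (4.67% when weighted). Here 239 cells lay at the edge of the class.

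Cells with primitive blood markers held Egr1 in 6 of 26 (23.1%, 8.97 to 43.6%), against 55 of 322 (14.7% when weighted), and Ier2 in 11 of 26 (42.3%, 23.4 to 63.1%), against 205 of 322 (61.2% when weighted). The highest Jun cell, with 304 reads and 1889 CPM in WT at day 6, held 0 Fos, 0 Atf3, 0 Junb and 9 Egr1 reads, and only 3 of 8 endothelial markers.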
